A study of Mus musculus with 8 samples.

Results

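The fatty acid desaturases are the enzymes that put double bonds into fatty acids, and 8 genes of this kind were followed in brown adipose tissue (BAT): Scd1, Scd2, Scd3, Scd4, Fads1, Fads2, Fads3 and Fads6. They were taken by name as members of the desaturase families, and all 8 were among the 31053 genes of the count table. BAT of 4 WT and 4 Ucp1Δ/Δ mice was profiled by bulk RNA-seq, with 1 library per mouse. In Ucp1Δ/Δ mice, labelled ATGLKO, floxed Pnpla2, the gene of adipose triglyceride lipase (ATGL), was deleted by Cre under the control of Ucp1, a gene of thermogenic adipocytes, so that the other cells of the tissue kept the gene. All mice were C57BL6/J and 10 weeks old by their labels, and male. Whether the WT mice carried floxed alleles was not given in the sources used here.

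The stearoyl-CoA desaturases, encoded by the Scd genes, introduce the first double bond into saturated fatty acids and so make palmitoleate and oleate, the monounsaturated fatty acids of triglycerides, phospholipids and cholesteryl esters. The Fads enzymes add double bonds to fatty acids that already hold some: Fads2 catalyses the first and Fads1 a later step in the synthesis of arachidonate and other long polyunsaturated fatty acids, and Fads3 acts on the sphingoid base of ceramides. These enzymes sit in the membrane of the endoplasmic reticulum and take electrons from cytochrome b5 and its reductases. Scd1 is a classical target of SREBP-1c, ChREBP and LXR, the transcription factors of lipogenesis, together with the fatty acid synthase gene Fasn and the elongase gene Elovl6.

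The libraries held between 2017697 and 3115956 counts, of which mitochondrially encoded genes took 38.4% to 45.6%. Levels are given as CPM, a gene's counts set to a common library size after TMM scaling, which adjusts for differences in RNA composition. A floor of 3 counts stood at 0.933 to 1.53 CPM, counting error alone considered. Pnpla2, the deleted gene, was at 2913 ± 191 CPM (SD, n = 4) in WT mice and at 474 ± 59.2 CPM (SD, n = 4) in Ucp1Δ/Δ mice, or 16.3% of the WT level, and every library matched its label. The labels name the stromal vascular fraction beside BAT, but the 5 adipocyte markers (Adipoq, Plin1, Lipe, Cidec and Fabp4) summed to between 6219 and 11112 CPM in every library, which is the RNA of adipocytes. In whole tissue, fewer cells of a type and less RNA per cell cannot be told apart.

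In the BAT of both genotypes nearly all desaturase counts came from 1 gene, Scd1. It stood at 79.2% of its WT level in Ucp1Δ/Δ mice and was not called by the main test. The gene called different was a minor one, Fads3, which rose 5.41-fold. Of the 8 genes, 4 had enough counts to enter edgeR's quasi-likelihood test, whose p-values were adjusted by Benjamini-Hochberg over 8930 genes: Scd1, Scd2, Fads1 and Fads3. Fads3 was called higher in Ucp1Δ/Δ mice at an adjusted p under 0.05 and none was called lower, beside 13.3% of all genes tested called higher and 7.63% called lower. Scd3, Scd4, Fads2 and Fads6 had between 1 and 35 counts in all 8 libraries together and were not tested.

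**Figure D1:**
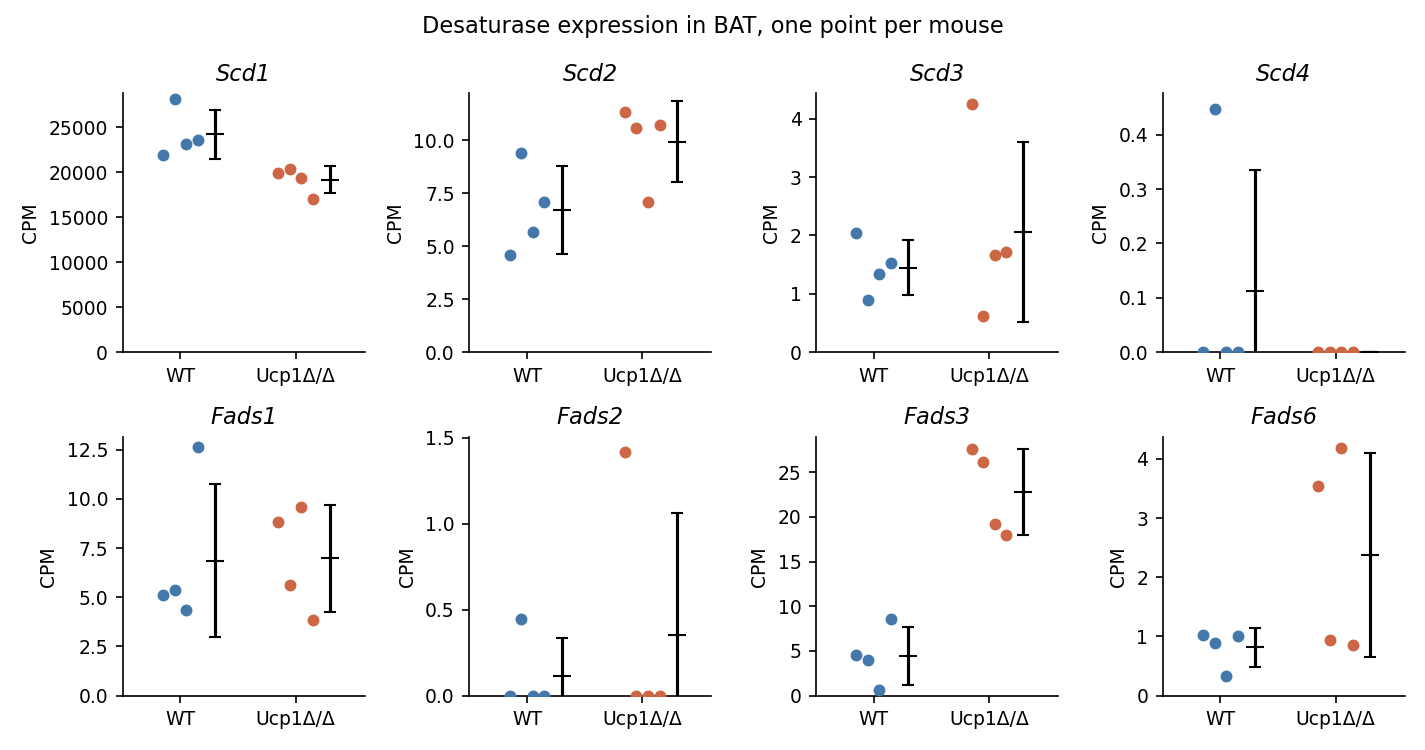
Expression of the 8 desaturase genes in BAT, in CPM on linear axes that differ between panels, with 1 point per mouse and the mean and SD of the 4 mice of each genotype beside them (error bars are cut at 0). The points of the genotypes are apart in Scd1, by a small margin, and in Fads3, where the Ucp1Δ/Δ mice lie between 18.0 and 27.6 CPM and the WT mice between 0.668 and 8.61 CPM.

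The 4 Scd genes lie in 1 cluster of 204611 bases on chromosome 19 of mm10. Scd1 (ENSMUSG00000037071) occupies chr19:44394455-44407879 on the minus strand, and Scd3 (chr19:44203269-44244016), Scd2 (chr19:44293674-44306864) and Scd4 (chr19:44333092-44346743) lie beside it on the plus strand. All are protein coding, and no other gene overlaps their exons except the microRNA gene Mir5114 in an exon of Scd2. Their coding sequences are close copies: that of Scd1 is identical to that of Scd2 at 90.33% of aligned bases, to that of Scd3 at 91.46% and to that of Scd4 at 85.58%. This bears on the low counts of Scd2, Scd3 and Scd4, since a read of 75 bases can be the same in several of the genes. A stretch of 75 coding bases of exon 4 is printed to show it. It was read from Scd1 at chr19:44401812-44401886 on the minus strand, from Scd2 at chr19:44299621-44299695, from Scd3 at chr19:44235783-44235857 and from Scd4 at chr19:44338922-44338996, all 3 on the plus strand of mm10, and capitals mark a base that differs from Scd1.
Scd1: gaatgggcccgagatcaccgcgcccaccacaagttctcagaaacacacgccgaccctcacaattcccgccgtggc
Scd2: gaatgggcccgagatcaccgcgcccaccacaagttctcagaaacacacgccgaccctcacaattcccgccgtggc
Scd3: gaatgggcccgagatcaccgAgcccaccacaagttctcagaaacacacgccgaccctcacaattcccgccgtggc
Scd4: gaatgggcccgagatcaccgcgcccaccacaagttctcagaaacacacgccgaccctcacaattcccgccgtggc
Scd2 and Scd4 were identical to Scd1 over the stretch, and Scd3 differed at 1 base. Such stretches are few: 154 of the 4758 windows of 75 bases in the Scd1 transcript (3.24%), and 97 of 5381 in that of Scd2 (1.8%), were found in the transcript of another gene, and none of them within the last 500 bases of any of the 8 genes. The study's methods name the NEGEDIA Digital mRNA-seq service for the libraries. They do not state whether its reads came from whole transcripts or from their 3′ ends. How reads that match several genes were counted was not given in the sources used here either. The counts of Scd2, Scd3 and Scd4 are uncertain to that extent.

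Scd1 took 99.7% to 99.9% of all desaturase counts in every mouse. Its counts were 42960, 62866, 69249 and 46526 in WT mice 1 to 4 and 56279, 65499, 46191 and 39696 in Ucp1Δ/Δ mice 1 to 4. Values per kb of exon, here and below, compare genes fairly only where reads cover whole transcripts, which was not given. By CPM per kb of exon, Scd1 ranked between 2 and 4 among nuclear genes in each of the 8 libraries. Scaled by library size, its level was 21906, 28165, 23125 and 23569 CPM in the WT mice and 19911, 20381, 19302 and 17038 CPM in the Ucp1Δ/Δ mice. The lowest WT mouse was above the highest Ucp1Δ/Δ mouse, as in 9.37% of all genes tested, with means of 24191 ± 2741 CPM (SD, n = 4) and 19158 ± 1481 CPM (SD, n = 4), so that the Ucp1Δ/Δ level was 79.2% of WT. The log2 fold change (log2FC) of -0.34 (standard error 0.18, 95% interval -0.71 to 0.04) did not pass edgeR's quasi-likelihood test (adjusted p = 0.204). As a share of all counts Scd1 was at 2.13% to 2.59% in WT and 1.77% to 2.23% in Ucp1Δ/Δ mice, and these ranges overlapped (exact permutation test, two-sided, p = 0.114). DESeq2, which the paper names for its differentially expressed genes, served as an alternative. Its Wald test called Scd1 lower (log2FC -0.37, adjusted p = 0.0249), whereas scaling by total counts alone gave a log2FC of -0.19 with the median of all genes at 0.13. Over all alternatives but DESeq2's own test, single mice left out included, Scd1 was not called.

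Scd2, the form known for its expression in brain and in early life, had 9, 21, 17 and 14 counts in the WT mice and 32, 34, 17 and 25 in the Ucp1Δ/Δ mice. This corresponds to 4.59, 9.41, 5.68 and 7.09 CPM against 11.3, 10.6, 7.10 and 10.7 CPM. One Ucp1Δ/Δ mouse, number 3, lay among the WT mice, and the other 3 lay above all of them. The log2FC of 0.57 (standard error 0.29, 95% interval -0.04 to 1.19) did not pass the test (edgeR's quasi-likelihood test, adjusted p = 0.185). Scd3 had 4, 2, 4 and 3 counts in WT and 12, 2, 4 and 4 in Ucp1Δ/Δ mice, in the range of the floor of 3 counts in most mice. Scd4 had 1 count, in WT mouse 2, and was at 0 in the other 7 libraries. Per kb of exon, Scd1 stood at 4945 CPM in WT and 3916 CPM in Ucp1Δ/Δ mice, Scd2 at 1.22 and 1.82 CPM, and Scd3 at 0.408 and 0.581 CPM.

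The genes Fads1, Fads2 and Fads3 form a second cluster of 155309 bases on chromosome 19. Fads3 (ENSMUSG00000024664, chr19:10041569-10060110, plus strand) and Fads2 (chr19:10062765-10101746, minus strand) point at each other with their 3′ ends, 2654 bases apart, and Fads1 follows at chr19:10182888-10196877 on the plus strand. Fads6 lies apart from them, at chr11:115279622-115297663 on the minus strand. None shares a base of exon with another annotated gene. The coding sequence of Fads3 is identical to that of Fads2 at 71.06% of aligned bases and to that of Fads1 at 65.09%, and no window of 75 bases in the 4 Fads transcripts was found in another gene. A stretch of 75 coding bases of exon 10, where Fads3 and its neighbours have the fewest differences, is printed to show that a read of Fads3 can be told from both. It was read from Fads3 at chr19:10056222-10056296 and from Fads1 at chr19:10194323-10194397 on the plus strand, and from Fads2 at chr19:10065602-10065676 on the minus strand, and capitals mark bases that differ from Fads3.
Fads3: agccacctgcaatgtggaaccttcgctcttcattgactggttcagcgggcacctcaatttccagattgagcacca
Fads2: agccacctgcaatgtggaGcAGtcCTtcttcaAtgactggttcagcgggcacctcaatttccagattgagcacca
Fads1: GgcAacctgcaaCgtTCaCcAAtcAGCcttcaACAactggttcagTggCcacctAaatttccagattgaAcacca
Fads2 differed from Fads3 at 6 of the 75 bases and Fads1 at 18.

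Fads3 was the desaturase that differed most between the genotypes. It had 9, 9, 2 and 17 counts in WT mice 1 to 4 and 78, 84, 46 and 42 in Ucp1Δ/Δ mice 1 to 4. In CPM these were 4.59, 4.03, 0.668 and 8.61 against 27.6, 26.1, 19.2 and 18.0, with means of 4.48 ± 3.26 (SD, n = 4) and 22.7 ± 4.82 (SD, n = 4). The genotypes did not overlap, and the lowest Ucp1Δ/Δ mouse had more than the highest WT mouse by a wide margin, beside 14.4% of all genes tested whose Ucp1Δ/Δ mice all lay above the WT mice. The log2FC was 2.44 (standard error 0.40, 95% interval 1.58 to 3.30, adjusted p = 0.000445 in edgeR's quasi-likelihood test), a 5.41-fold rise with an interval from 2.98-fold to 9.83-fold. Fads3 reached the filter's minimum of 4.22 CPM in all 4 Ucp1Δ/Δ mice and in 2 WT mice, and thus passed through the group where it was high. With every gene of at least 1 count admitted, its log2FC was 2.41 (adjusted p = 5.31e-12, edgeR's quasi-likelihood test). This smaller p-value is no stronger evidence, since that filter lowered adjusted p-values of well-counted genes too. For Lyz2, which reached the minimum in every mouse, the same test gave 4.03e-07 with the main filter and 9.27e-40 with this one. It was called higher with each single mouse left out (log2FC 1.98 to 2.97) and under every other alternative that tested it. It was not tested where at least 10 counts were asked of every mouse.

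Fads1, the desaturase of the last step towards arachidonate, had 10, 12, 13 and 25 counts in WT and 25, 18, 23 and 9 in Ucp1Δ/Δ mice. Its means were 6.87 ± 3.89 CPM (SD, n = 4) and 6.98 ± 2.71 CPM (SD, n = 4), and the highest and the lowest of all 8 mice were WT mouse 4, at 12.7 CPM, and Ucp1Δ/Δ mouse 4, at 3.86 CPM. The log2FC of 0.06 had a 95% interval from -0.77 to 0.88 (adjusted p = 0.942, edgeR's quasi-likelihood test), which leaves room for changes of either sign, and the sign turned with single mice left out. Fads2, the desaturase of the first step, had 1 count in WT mouse 2, 4 counts in Ucp1Δ/Δ mouse 1 and 0 in the other 6, at or near the floor, so that a difference was not detectable at this depth. Fads6, a desaturase gene named from its sequence, had 2, 2, 1 and 2 counts in WT and 10, 3, 10 and 2 in Ucp1Δ/Δ mice. In CPM, Ucp1Δ/Δ mice 1 and 3 stood above all others, at 3.54 and 4.18. Mice 2 and 4, at 0.933 and 0.858 CPM, lay within the WT range of 0.334 to 1.02 CPM. With all genes of at least 1 count admitted, edgeR's quasi-likelihood test gave Fads6 a log2FC of 1.52 (adjusted p = 0.160) and Scd3 one of 0.49 (adjusted p = 0.657).

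Counted together, the 7 genes other than Scd1 had 34, 48, 37 and 61 counts in the WT mice and 161, 141, 100 and 82 in the Ucp1Δ/Δ mice, with no overlap (exact permutation test, two-sided, p = 0.0286, which is the lowest value that 4 mice against 4 can give). These summed counts were tested without scaling to library size, so they hold differences in depth as well. This separation rested on Fads3: without it the other 6 genes had 25, 39, 35 and 44 counts in the WT mice and 83, 57, 54 and 40 in the Ucp1Δ/Δ mice, which overlapped (p = 0.0571 in the same exact test). Fads3 made up 26.5%, 18.8%, 5.41% and 27.9% of these counts in the WT mice. In the Ucp1Δ/Δ mice it made up 48.4%, 59.6%, 46% and 51.2%, again with no overlap (p = 0.0286 in the same exact test). Fads3 had already been called higher from the same counts, so this share restates its rise and adds no separate support. After Scd1, Fads3 thereby had the most counts of the 8 genes in each Ucp1Δ/Δ mouse. Per kb of exon, Fads3 stood at 1.18 CPM in WT, close to Scd2 at 1.22 and Fads1 at 1.43, and at 5.998 CPM in Ucp1Δ/Δ mice, where Scd2 stood at 1.82 and Fads1 at 1.45.

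**Figure D2:**
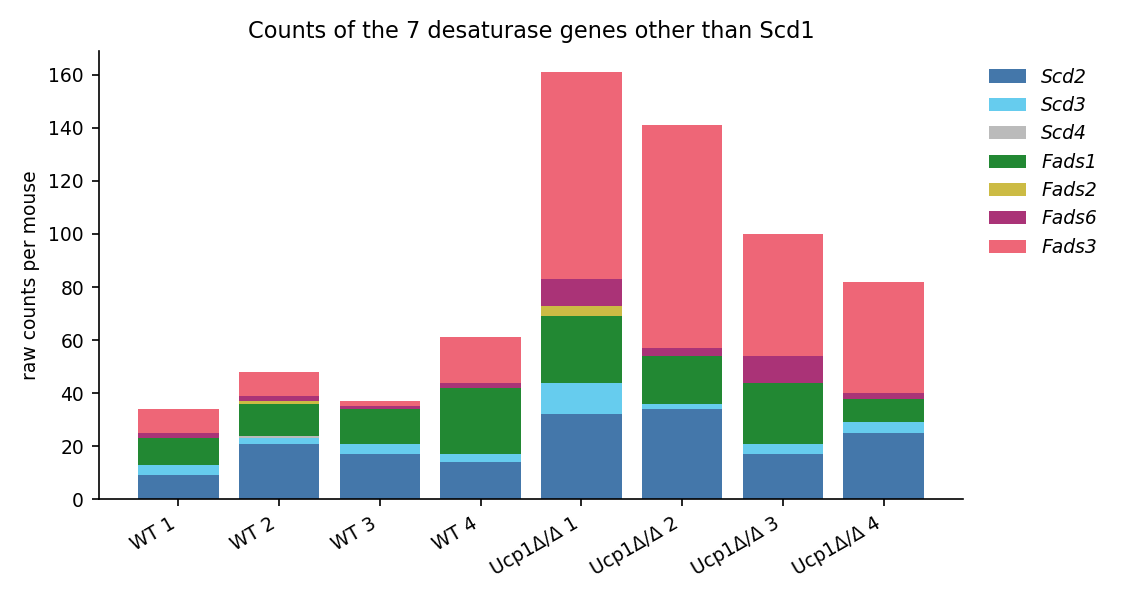
Raw counts of the 7 desaturase genes other than Scd1 in each of the 8 libraries, stacked by gene on a linear axis from 0. The stacks reach 34 to 61 counts in the WT mice and 82 to 161 in the Ucp1Δ/Δ mice, and the Fads3 segment alone reaches 42 to 84 counts in the latter; the single Scd4 count, in WT mouse 2, is barely visible.

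Macrophage and stromal transcripts rose in the same libraries as Fads3. The 7 macrophage markers (Adgre1, Cd68, Csf1r, Lyz2, C1qa, Trem2 and Ptprc) were all called higher, and their summed level ran from 74.5 to 122 CPM in WT and from 809 to 1318 CPM in Ucp1Δ/Δ mice. Trem2, with 0, 1, 0 and 0 counts in the WT mice, Cd68, Adgre1 and Ptprc entered the test through the Ucp1Δ/Δ mice, as did the stromal markers Pdgfra and Lum, and all 6 were called higher as well with every gene of at least 1 count admitted. The 5 stromal markers (Pdgfra, Dcn, Lum, Dpt and Col1a1) were all called higher too, with sums of 273 to 348 CPM and 646 to 1097 CPM. Fads3 amounted to 4.52%, 3.31%, 0.897% and 10.9% of the macrophage sum in the WT mice and to 2.69%, 1.98%, 2.32% and 2.23% in the Ucp1Δ/Δ mice, so that the ranges overlapped. Relative to the stromal sum it amounted to 0.245% to 2.48% in WT and 1.85% to 3.18% in Ucp1Δ/Δ mice, which overlapped as well. These shares were computed after the values had been seen and were not tested, and the part of either cell type in the rise of Fads3 was not tested. Of the 5 endothelial markers 1, Tie1, was called higher (sums of 133 to 170 and 185 to 202 CPM), and of the 5 Schwann cell markers 1, S100b, with sums of 118 to 170 and 672 to 892 CPM. The 4 B cell markers summed to at most 1.29 CPM with Cd79a at 0, and the 4 markers of sebocytes and skin to at most 3.57 CPM with Krt5 and Krt14 at 0 in every library.

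**Figure D3:**
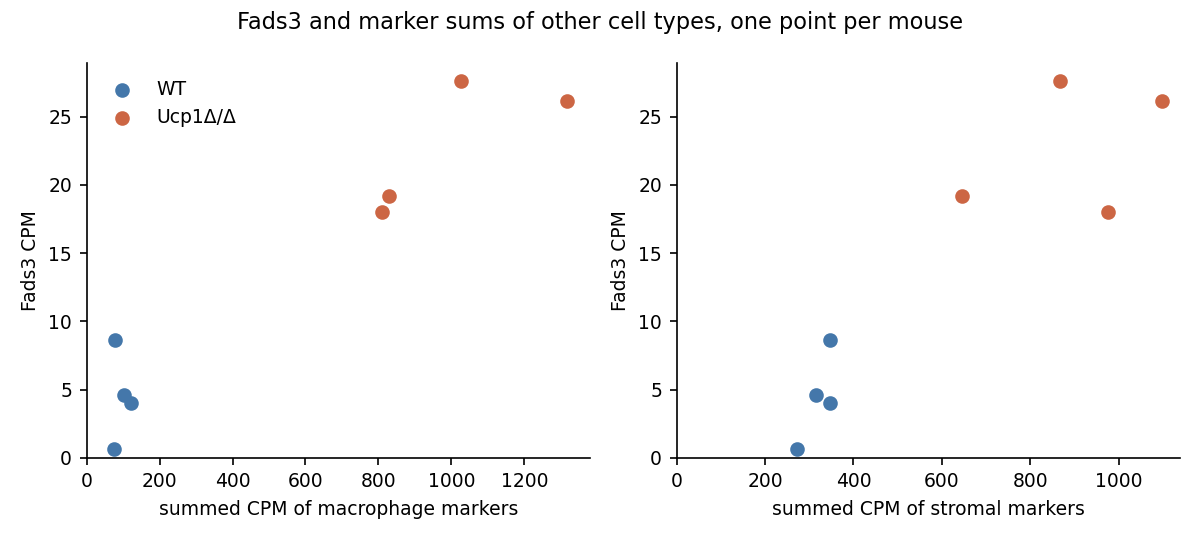
Fads3 level in CPM against the summed CPM of the 7 macrophage markers (left) and of the 5 stromal markers (right), on linear axes with 1 point per mouse. The 4 Ucp1Δ/Δ mice lie above and to the right of the 4 WT mice in both panels, with macrophage sums of 809 to 1318 CPM against 74.5 to 122 CPM.

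The desaturases work between fatty acid synthesis and elongation on one side and the use of their products on the other, and these neighbours fell in larger number. Over 8 lists of such genes 69 were tested, of which 24 (34.8%) were called lower and 5 (7.25%) higher in Ucp1Δ/Δ mice, beside 7.63% and 13.3% of all genes tested. De novo lipogenesis, the making of palmitate from citrate and acetate, was lower in 8 of its 9 genes, all 9 of which were tested, with a median log2FC of -1.24 beside -0.01 over all genes tested. Fasn, the fatty acid synthase, fell from 10382 ± 1792 CPM to 2125 ± 596 CPM (SD, n = 4 each) with a log2FC of -2.29 (adjusted p = 4.21e-06, edgeR's quasi-likelihood test). Acly, which makes cytosolic acetyl-CoA from citrate, had a log2FC of -1.89, and Slc25a1, the mitochondrial citrate carrier, one of -1.62. The gene of this list that did not pass was Mcat, of mitochondrial fatty acid synthesis (log2FC -0.47, adjusted p = 0.237), named after its value was seen. Of the 5 adipocyte markers, Adipoq, Cidec and Plin1 were called lower in the same libraries. Lipe (log2FC -0.36, adjusted p = 0.140) and Fabp4 (-0.39, 0.127, both by edgeR's quasi-likelihood test) were not called. The part of adipocyte content in the falls of the lipogenesis genes was not tested.

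The elongation cycle adds carbons to the fatty acids that the desaturases take or make. Of its 13 genes 10 were tested, 6 were lower and 2 higher, beside 7.63% and 13.3% of all genes tested. The median log2FC was -0.72, and the 2 higher genes are too few to set apart from the 13.3%. Elovl6, which lengthens palmitate to the Scd substrate stearate, fell from 590 ± 44.9 CPM to 251 ± 26.9 CPM (SD, n = 4 each; log2FC -1.23, adjusted p = 4.73e-05 by edgeR's quasi-likelihood test). Elovl5, which lengthens the products of Fads2, had a log2FC of -1.35, and Hsd17b12, the ketoacyl-CoA reductase of the cycle, one of -0.93. Elovl1, the elongase of saturated very long chains, rose with a log2FC of 1.34, and Hacd4, a dehydratase of the cycle, with one of 1.93. Hacd4 had 4, 6, 7 and 7 counts in the WT mice, all under the filter's minimum, and so entered the test through the Ucp1Δ/Δ mice, with 21, 52, 23 and 16 counts. With every gene of at least 1 count admitted its log2FC was 1.90 (adjusted p = 3.76e-05, edgeR's quasi-likelihood test), a p-value with the limit given for Fads3. It was not tested where at least 10 counts were asked of every mouse.

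**Figure D4:**
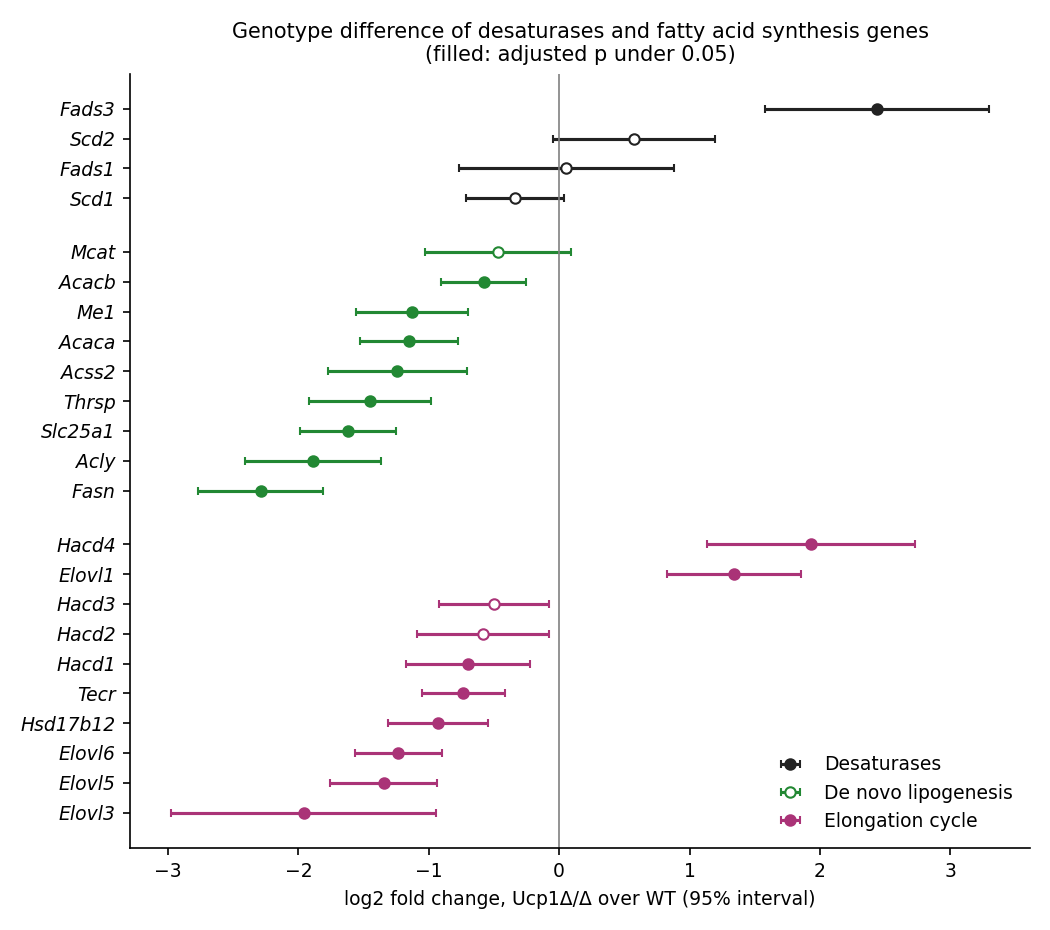
Log2FC of Ucp1Δ/Δ over WT with its 95% interval for the 4 desaturases tested, the 9 genes of de novo lipogenesis and the 10 tested genes of the elongation cycle, with filled points for an adjusted p under 0.05 in edgeR's quasi-likelihood test. Fads3, at 2.44, stands opposite to the 8 lower genes of lipogenesis, and the interval of Scd1 reaches from -0.71 to just above 0.

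The electron donors of the desaturases, cytochrome b5 and its reductases, had 6 of 7 genes tested and none called in either direction (median log2FC 0.07). The other lipid desaturases, which act on ceramides, plasmalogens and sterols, had 4 genes in the count table, of which 3 were tested and none called. In 7 alternatives, scaling by total counts among them, 1 gene of each of these lists was called higher. Among 19 regulators of desaturase genes 18 were tested, with a median log2FC of -0.13. Beside 7.63% lower and 13.3% higher of all genes tested, 3 were lower and none higher, too few to set apart from these shares. They were Insig1, the SREBP anchor of the endoplasmic reticulum that is itself an SREBP target (log2FC -1.77, adjusted p = 9.36e-05), Ppara, the fatty acid receptor of oxidation genes (-1.10, 0.00476), and Mlx, the partner of ChREBP (-1.34, 0.00923, all by edgeR's quasi-likelihood test). Srebf1 itself, named after its value was seen, had 12, 42, 33 and 7 counts in WT and 27, 20, 14 and 15 in Ucp1Δ/Δ mice, which overlapped (log2FC -0.51, adjusted p = 0.414 in the same test).

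Peroxisomal chain shortening, the last step in the making of docosahexaenoate, had all 8 genes tested and 3 lower, beside 7.63% of all genes tested. Among the 3 were Abcd3, a fatty acyl-CoA transporter (log2FC -1.04), and Acaa1b, a thiolase (-0.78). Among the 15 genes that use polyunsaturated fatty acids 8 were tested, 1 was lower and 2 higher, counts too small to set apart from the 7.63% and 13.3% of all genes. Lpcat3, which places arachidonate into phospholipids, fell (log2FC -0.82, adjusted p = 0.0121, edgeR's quasi-likelihood test). Ltc4s and Alox5ap, both of leukotriene synthesis, rose with log2FCs of 1.83 and 2.66. Among the 10 genes that use monounsaturated fatty acids 7 were tested, 3 were lower and 1 higher, beside the same shares of all genes. Agpat2 (-2.19), Dgat2 (-1.25) and Acsl1 (-0.85), which build triglycerides, fell, and Soat1, which esterifies cholesterol, preferably with oleate, rose from 1.51 to 20.03 CPM (log2FC 3.69, adjusted p = 2.56e-05, edgeR's quasi-likelihood test). Soat1, with 2, 3, 5 and 4 counts in the WT mice, and Alox5ap, which reached the minimum in 2 of them, also entered the test through the Ucp1Δ/Δ mice. With every gene of at least 1 count admitted their log2FCs were 3.65 and 2.63, both called higher, and neither was tested at 10 counts in every mouse. The macrophage sums given above moved with the 3 that rose, and their part in it was not tested.

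Ratios of counts within a library do not depend on its scaling, and 9 of them were compared by two-sided exact permutation tests with adjustment over the 9. Scd1 had 1.94, 2.62, 1.97 and 3.03 counts for each Fasn count in the WT mice and 6.93, 12.1, 8.25 and 10.6 in the Ucp1Δ/Δ mice, a difference of 1.98 on the log2 scale (exact p = 0.0286, adjusted p = 0.0429). Relative to Elovl6, Scd1 stood at 36.9, 49.9, 35.5 and 42.8 in the WT mice and at 71.6, 95.3, 76.0 and 65.996 in the Ucp1Δ/Δ mice (log2 difference 0.90, exact p = 0.0286, adjusted p = 0.0429). In both ratios every Ucp1Δ/Δ mouse was above every WT mouse. Scd1 was thus lower by less than these genes, which are regulated with it in the textbook account. Fasn and Elovl6 had already been called lower from the same counts, so ratios to them restate those falls and add no separate support. The ratio of Scd1 to Scd2 went the other way, from 4522, 2924, 3957 and 3209 to 1732, 1899, 2640 and 1557 (log2 difference -0.91, exact p = 0.0286, adjusted p = 0.0429). The ratio of Scd2 to Elovl6 was higher by 1.81 on the log2 scale with the same p-values and no overlap. Fads1 to Elovl5 differed by 1.38 with an overlap between genotypes (exact p = 0.0857, adjusted p = 0.110).

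**Figure D5:**
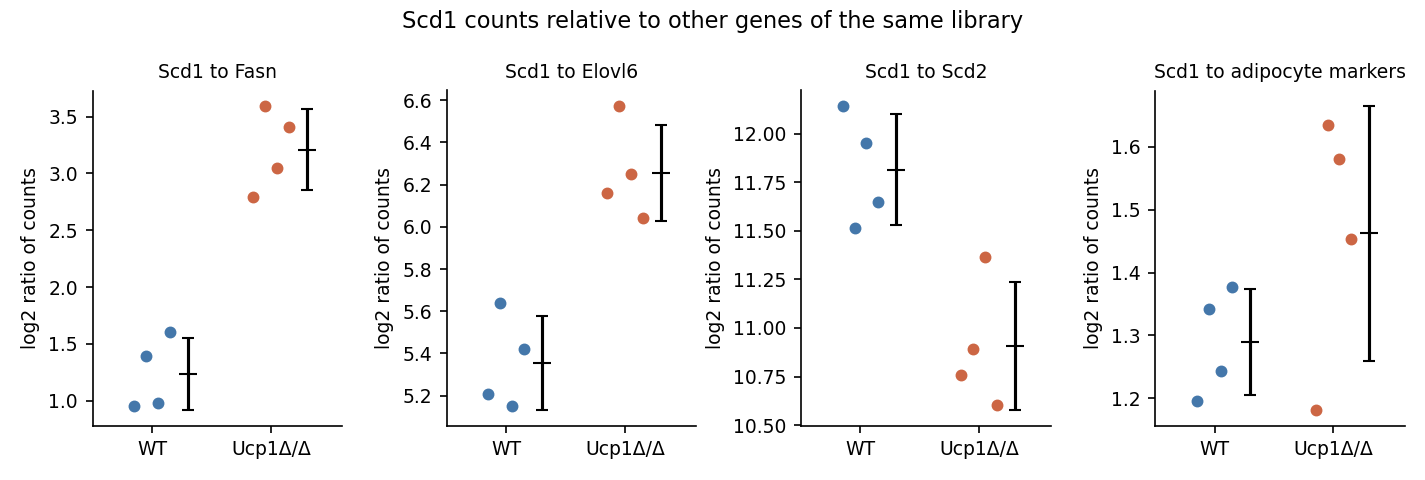
Log2 ratio of Scd1 counts to the counts of Fasn, Elovl6, Scd2 and the sum of the 5 adipocyte markers in the same library, on linear axes that differ between panels and do not start at 0, with 1 point per mouse and the mean and SD of the 4 mice of each genotype. The genotypes are apart in the first 3 panels, by 1.98, 0.90 and -0.91, and overlap in the last.

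Against the summed counts of the adipocyte markers, Scd1 stood at 2.29, 2.53, 2.37 and 2.599 in the WT mice and at 2.27, 3.11, 2.99 and 2.74 in the Ucp1Δ/Δ mice. The genotypes overlapped, since Ucp1Δ/Δ mouse 1 had the lowest ratio of all 8, and the log2 difference of 0.17 did not pass the test (exact p = 0.171, adjusted p = 0.193). Measured against the same markers, Scd2 was higher by 1.08 and Fads3 by 3.19 on the log2 scale, both with no overlap (exact p = 0.0286, adjusted p = 0.0429). Fads3 had already been called higher from the same counts, so its ratio adds no separate support. The Scd2 value holds the lower marker sum of the Ucp1Δ/Δ mice as well as the log2FC of Scd2. That log2FC, 0.57, did not pass on its own (edgeR's quasi-likelihood test, adjusted p = 0.185). The Fads3 value was 2.50 without WT mouse 3, which had 2 Fads3 counts, and 3.67 without WT mouse 4. The Fads1 value was 0.57 with overlap (exact p = 0.257, adjusted p = 0.257). The adipocyte sum itself ran from 9069 to 11112 CPM in WT and from 6219 to 8783 CPM in Ucp1Δ/Δ mice. Fabp4 alone averaged 6531 CPM in WT and 4990 CPM in Ucp1Δ/Δ mice, so these ratios are largely ratios to Fabp4. Its log2FC was -0.39 and that of Lipe -0.36, while Adipoq, Plin1 and Cidec fell by -0.82, -0.91 and -1.01. The paper also lists Fabp4 among the genes of lipid-handling macrophages, and the part of macrophages in its level was not tested.

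The patterns of the 4 desaturases tested were compared across the 8 mice. Each gene was centred on its own mean log2 CPM, and likeness was measured as the root mean square difference over the 8 libraries, where 0 means the same pattern. Scd1 and Scd2 differed by 0.50, Scd1 and Fads1 by 0.53 and Scd2 and Fads1 by 0.64. Fads3 differed from Scd2 by 1.16, from Fads1 by 1.30 and from Scd1 by 1.54. The genes closest to Scd1 were Ppp1ca (0.061), Rbbp4 (0.066) and Atp5g3 (0.076), beside a median of 0.365 over the 6427 other genes with a mean of at least 10 CPM. Those closest to Fads3 were Alox5ap (0.387), Irf8 (0.417) and H2-Ab1 (0.449), beside a median of 1.45. For Scd2 they were Cln8 (0.087), Gmfb (0.175) and Wars (0.181), beside a median of 0.539. For Fads1 they were Rasgrp2 (0.229), Tob2 (0.241) and C9orf72 (0.263), beside a median of 0.611. Scd2 and Fads1 thus lay farther from Scd1 than its median gene, but nearer to Fads3 than its median gene. With the low counts of Scd2, Fads1 and Fads3 these distances hold counting noise as well as the pattern of the gene.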

How the data were processed

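BAT of 4 WT and 4 Ucp1Δ/Δ mice was grouped by the genotype label (the study's own text gives the mice as younger than the labels do), 1 library per mouse of single-end reads of 75 bases. The study's methods name bbduk, STAR, mm10 and HTseq-counts, whereas the submitters' processing notes name Trimmomatic, HISAT2 and DESeq2 with GRCm38 and mm10. The strand setting and the annotation release were not given in the sources used here. The authors deposited whole-number counts per gene without normalization, used for all main results. They also deposited log2 values, which equal the log2 of the count times 1 factor per mouse, plus 1, and served 1 alternative.

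Genes were filtered with filterByExpr, scaled by TMM and compared with edgeR 4.0.16's quasi-likelihood test in R 4.3.3, with Benjamini-Hochberg adjustment and a threshold of 0.05. DESeq2 1.42.0, limma 3.58.1, other filters and scalings, the replicate number as a block and each mouse left out were alternatives. Ratios used a pseudocount of 0.5 and log2 CPM a prior count of 2. Planned ratios with Fads2, which had 5 counts in all, were not computed. The test was tested on simulated data. Symbols, positions and sequences came from GENCODE M21 and mm10, and 30934 of the 31053 identifiers had a symbol. The 8 desaturases and the gene lists were chosen with earlier results of these data known, so the lists are no independent evidence. Genes named were the 8 desaturases, Pnpla2, up to 3 higher and 3 lower genes per list by adjusted p, the genes of the ratios, markers, and the 3 genes nearest to each desaturase tested. One gene that this rule names is not reported here. Between libraries of the same genotype the chi-square per degree of freedom was 4.69 to 23.2, where counting alone gives 1, so none was a duplicate.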

Additional observations from a re-analysis of the deposited data

Results flagged for a closer look

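Of 40 groups of 4 mice scanned, 2 held a mouse far from the other 3, and chance alone gives about 2. Ucp1Δ/Δ mouse 3 had a Scd2 level of 7.10 CPM where the other 3 lay between 10.6 and 11.3 CPM, a gap of 0.852 of the whole range on the log2 CPM scale. Ucp1Δ/Δ mouse 1 had an adipocyte marker sum of 13.1 on the log2 CPM scale where the other 3 lay between 12.6 and 12.7, a gap of 0.844 of the range. Without Ucp1Δ/Δ mouse 1 the ratio of Scd1 to the adipocyte markers differed by 0.27 in place of 0.17 on the log2 scale.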

How the results depend on the processing

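The rise of Fads3 held its direction and its side of the threshold in every alternative that tested it, with log2FCs of 2.37 to 3.23 and, with single mice left out, 1.98 to 2.97. Asking for at least 10 counts in every mouse removed Fads3, so that 0 desaturases were called higher, and left 746 higher and 449 lower genes in place of 1191 and 681. DESeq2's Wald test called 1 desaturase lower, Scd1 (log2FC -0.37), and the cause was not tested. Scaling by total counts alone, which moved the median of all genes to 0.13, gave 404 lower genes. Leaving out the mouse with the most skeletal muscle marker counts in each genotype, WT mouse 1 and Ucp1Δ/Δ mouse 2, an alternative chosen after seeing the data, gave 279 lower genes, on fewer samples. With single mice left out, Scd1 ranged from -0.39 to -0.27 in log2FC, Scd2 from 0.43 to 0.77 and Fads1 from -0.15 to 0.50, the last changing sign without WT mouse 1, 2 or 3 or Ucp1Δ/Δ mouse 1 or 3. The higher genes then ranged from 945 to 1304 and the lower from 400, without Ucp1Δ/Δ mouse 2, to 851. Over the 8 lists the lower genes numbered 19 to 25 and the higher 4 to 7 in all alternatives. The 9 ratios kept their direction in all alternatives. With a mouse left out the smallest p a ratio can reach is 0.0571, and in pairs 0.125, so these say nothing on significance. Replicate numbers did not pair the mice, since 2 of 4 same-numbered pairs correlated above 0.1 and 1 of 4 WT mice correlated best with its own number. With the number as a block, Scd1 had a log2FC of -0.33 and Fads3 one of 2.47, and no desaturase call changed. The depth limits Scd3, Scd4, Fads2 and Fads6, at or near the floor of 3 counts.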
